A study of Rattus norvegicus with 38 samples.

Results

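The enzymes that turn squalene into cholesterol were followed through 38 livers of Sprague-Dawley rats. The 9 genes, of 31038 in the count table, are Sqle, Lss, Cyp51, Tm7sf2, Msmo1, Nsdhl, Hsd17b7, Ebp and Dhcr7. They were chosen by name, as the enzymes of the late steps of sterol synthesis, and all 9 were among the 14786 genes tested. Livers were collected on day 28. Control rats (n = 5) had neither an extract nor lipopolysaccharide (LPS), a component of the outer membrane of gram-negative bacteria that provokes inflammation. Rats of the EF group (n = 5) were given the extract EF at 2.5 g/kg into the stomach. The EF_PF group (n = 5) had PF at 2.5 g/kg besides EF, and the EF_RD group (n = 4) had RD at 200 mg/kg besides EF. LPS was injected into the abdominal cavity in 4 further groups: LPS without extract (n = 5), LPS_EF with EF (n = 5), LPS_EF_PF with EF and PF (n = 4) and LPS_EF_RD with EF and RD (n = 5). What EF, PF and RD are made of, how much LPS was injected, and how long before collection, is not given in the sources used here. No rat had PF or RD without EF.

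Cholesterol synthesis begins with acetyl-CoA, passes through mevalonate and farnesyl diphosphate, and reaches squalene. Squalene is then oxidised, closed into lanosterol, stripped of its extra methyl groups and rearranged into cholesterol in the endoplasmic reticulum. The liver is a main site of this synthesis. The genes of the pathway are classic targets of the transcription factor SREBP2, which is released from the endoplasmic reticulum membrane when sterols are scarce and held there by the Insig proteins when they are plentiful.

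Sqle, squalene epoxidase, makes the first oxygenation and is one of the rate-limiting enzymes of the pathway. Lss, lanosterol synthase, closes the rings. Cyp51 is the cytochrome P450 that removes a methyl group from lanosterol, and Tm7sf2 is a sterol reductase that acts on the double bond this leaves. Msmo1, Nsdhl and Hsd17b7 work in turn to remove the methyl groups at carbon C4, as oxidase, dehydrogenase and ketoreductase. Ebp shifts a ring double bond, and Dhcr7 reduces 7-dehydrocholesterol to cholesterol. In the rn6 coordinates of the count table, Sqle lies at chr7:99609929-99624803, plus strand, Msmo1 at chr16:26859441-26875880, plus strand, Hsd17b7 at chr13:88288116-88308019, minus strand, Nsdhl at chrX:152933118-152964399, plus strand and Ebp at chrX:15049394-15055782, plus strand.

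Libraries held 19716622 to 35835012 counted read pairs. Levels are given in CPM, the share of a library's counts after scaling by TMM (a trimmed mean that sets most genes equal between libraries), changes are log2 fold changes with their standard error (SE), and adjusted p-values come from edgeR's quasi-likelihood test with Benjamini-Hochberg adjustment over all genes tested. A gene is called at an adjusted p under 0.05. The labels name liver as the source and hepatocytes as the cell type. The 7 hepatocyte markers were found in every group, with summed levels of 111800.0 to 192500.0 CPM, and 6 markers of Kupffer cells, the liver's macrophages, summed to 108 to 901 CPM. Some libraries stood apart by markers of other tissues. Skeletal muscle markers (8 genes) summed to 3756 CPM in EF_RD 1 and 349.6 CPM in LPS 3, against at most 2.05 CPM elsewhere, and exocrine pancreas markers (8 genes) to 2802 CPM in control 5, 1637 CPM in LPS 3 and 101.6 CPM in EF_RD 1, against at most 20.1 CPM elsewhere. Neutrophil and monocyte markers (6 genes) summed to 3.98 to 48.3 CPM without LPS, EF 1 being the highest, and to 24.6 to 182 CPM with it, LPS_EF 7 (24.6 CPM) and LPS_EF_RD 6 (31.7 CPM) being the lowest. EF 1, EF_RD 1, LPS 3, LPS_EF 7 and LPS_EF_RD 6 were left out together in an alternative fit, and control 5 was left out on its own. These are bulk livers, in which fewer cells of a type and less RNA per cell cannot be told apart.

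Per length of transcript, the 9 genes were not equally abundant in control liver. Nsdhl had 234 ± 21.6 TPM, a length-corrected share of the library (SD, n = 5), Ebp 222 ± 29.3, Cyp51 164 ± 25.8, Msmo1 136 ± 28.1 and Tm7sf2 107 ± 23.1. Dhcr7 had 61.3 ± 14.0 TPM, Sqle 35.7 ± 7.87, Lss 10.5 ± 3.11 and Hsd17b7 8.78 ± 2.14. The summed level of all 9 was 980.3 ± 119.6 TPM in control, 1361 ± 119.9 in EF_RD, 1764 ± 133 in EF_PF and 2187 ± 597 in EF. With LPS it was 1975 ± 392 TPM in LPS, 1783 ± 323 in LPS_EF, 1478 ± 215 in LPS_EF_PF and 1680 ± 629 in LPS_EF_RD. The lowest library sum outside control was 954 TPM, in LPS_EF_RD 2, and the highest control sum was 1130.0 TPM.

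**Figure D1:**
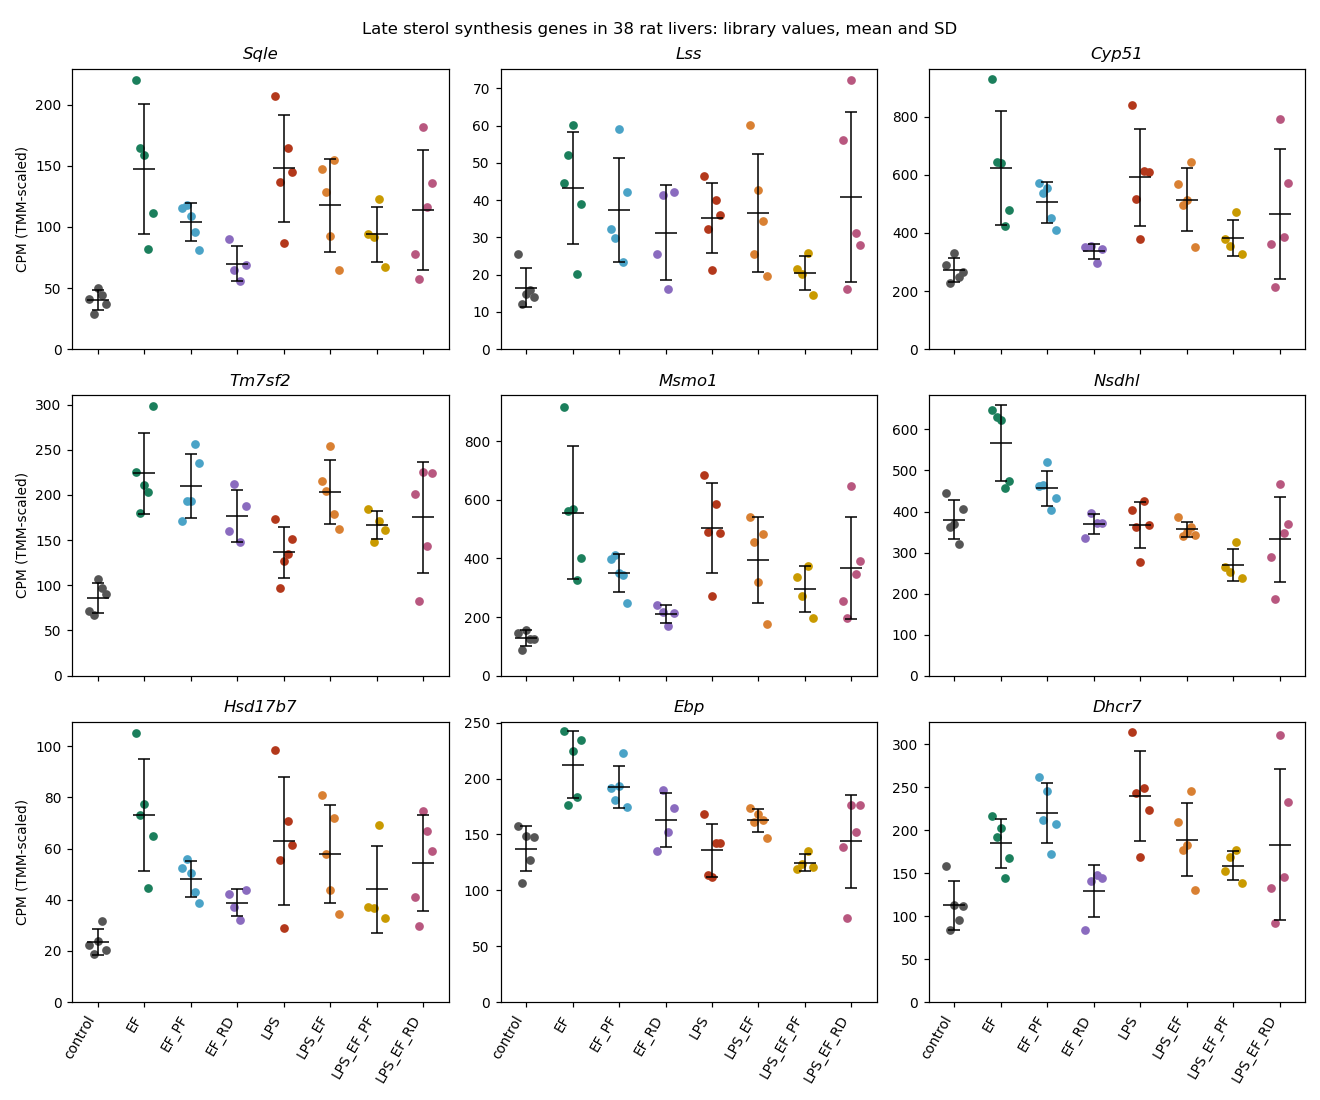
Level in CPM (TMM-scaled, linear axis from 0) of each of the 9 genes in each of 38 libraries, by group; points are libraries, the horizontal mark is the group mean and the bar its SD. Control is the lowest group for 7 genes, while Nsdhl and Ebp have LPS groups below control.

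LPS alone raised 7 of the 9 genes over control. Msmo1 and Sqle rose most, by 3.93-fold and 3.68-fold, Hsd17b7 rose 2.69-fold, and Cyp51, Lss and Dhcr7 rose 2.13-fold to 2.17-fold. Tm7sf2 rose 1.58-fold. Nsdhl and Ebp did not pass the test, and both lay near no change. Of all genes tested, 18.6% were called higher, and the median log2 change was 1.10 over the 9 genes and -0.002 over all genes tested.

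Msmo1 was at 145, 88.4, 156, 126 and 126 CPM in control 3, 4, 5, 6 and 7, and at 686, 489, 272, 587 and 487 CPM in LPS 1, 2, 3, 4 and 5. The lowest LPS library, LPS 3, was above the highest control library, so the groups did not overlap. The log2 change was 1.97 ± 0.30 (adjusted p = 1.16e-05). Sqle, which feeds the pathway with squalene epoxide, was at 40.6, 28.9, 50.4, 44.4 and 37.1 CPM in the control libraries in the same order and at 207, 137, 86.8, 165 and 145 CPM in the LPS libraries. Here too LPS 3 was the lowest of its group, and the groups did not overlap. The log2 change of Sqle was 1.88 ± 0.28 (adjusted p = 8.5e-06).

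Hsd17b7, the ketoreductase that completes the C4 reactions, was at 22.2, 18.8, 23.9, 31.8 and 20.3 CPM in control and 98.4, 55.5, 29.1, 70.6 and 61.3 CPM in LPS. LPS 3 lay below control 6, so the groups overlapped by this library, and the log2 change was 1.43 ± 0.27 (adjusted p = 0.000161). Cyp51 rose by 1.12 ± 0.24 (adjusted p = 0.000449) and Dhcr7 by 1.09 ± 0.23 (adjusted p = 0.000419), both without overlap. Lss rose by 1.10 ± 0.35 (adjusted p = 0.0137) and Tm7sf2 by 0.66 ± 0.20 (adjusted p = 0.00804), both with overlapping libraries. Every LPS library lay above every control library for 4 of the 9 genes (Sqle, Cyp51, Msmo1 and Dhcr7) and for 12.5% of all genes tested.

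Nsdhl was at 445, 362, 369, 320.2 and 405 CPM in control and 404, 363, 276, 424 and 368 CPM in LPS. Ebp was at 157, 106, 148, 127 and 147 CPM in control and 169, 114, 112, 142 and 142 CPM in LPS. For both genes the values of the 2 groups overlapped. Their log2 changes were -0.05 ± 0.15 (adjusted p = 0.819) for Nsdhl and -0.02 ± 0.15 (adjusted p = 0.944) for Ebp. The sign of both depended on the scaling: with the total count in place of TMM they were 0.08 and 0.10, a scaling that moved the median of all genes tested from -0.002 to 0.128. Neither was called in any fit.

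The make-up of the summed TPM of the 9 genes differed between groups. Nsdhl gave 24.1% ± 2.95 of it in control and 12.7% ± 1.41 in LPS (SD, n = 5 each), and Ebp 22.6% ± 0.88 and 12.3% ± 1.52. Msmo1 went the other way, from 13.8% ± 1.32 to 29.1% ± 3.27. In EF the shares were 16% ± 1.87 for Nsdhl, 15.8% ± 2.81 for Ebp and 25.8% ± 4.64 for Msmo1. These are shares of a sum that was larger in LPS and EF. The mean TPM values themselves were not lower than in control. Nsdhl was at 234, 248 and 345 TPM in control, LPS and EF, and Ebp at 222, 239 and 335 TPM. In TMM-scaled CPM, the means in control and LPS were 380.2 and 367.2 for Nsdhl, and 137.3 and 135.8 for Ebp.

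With LPS, markers of other cells moved as well. Against control, 6 of 6 neutrophil and monocyte markers, 4 of 6 Kupffer cell markers and 4 of 6 lymphocyte markers were called higher, and 5 of 7 hepatocyte markers lower, with a median log2 change of -0.47. Also called were 3 of 6 endothelial, 2 of 6 stellate and 3 of 3 tested skeletal muscle markers, higher, and 3 of 6 cholangiocyte markers, lower. The muscle markers were high in LPS 3, at 349.6 CPM, while the group medians were 1.46 CPM in LPS and 0.79 CPM in control. The cholangiocyte markers were high in control 5, at 123 CPM, while the group medians were 21.2 CPM in control and 21.7 CPM in LPS. Of all genes tested, 18.1% were called lower with LPS, beside the 18.6% called higher. The part of these markers in the changes of the sterol genes was not tested. Without LPS 3 and the other 4 libraries left out with it, the same test called 7 of the 9 genes higher. Without control 5 it called 7 as well.

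Promoter sequences were set beside these values because Msmo1 and Hsd17b7 were among the genes that rose most with LPS, and Nsdhl and Ebp were the 2 not called with LPS. The RefSeq table for build GRCr8 matched 8 of the 9 genes and gave 250 bases before to 50 after each start; Sqle was not matched. In all, 6 motifs were searched on both strands in the 33469 promoters of the table. CCAAT, the core bound by NF-Y, a partner of SREBP2, was in 6 of the 8 promoters and in 37.5% of all. GGGCGG, the core bound by SP1, was in 7 of the 8 and in 33.1% of all. TCACNCCAC, a sterol response element, was in 0 of the 8 and 1.12% of all, its looser forms TCACNCNAC and TCANNCCAC in 0 of the 8 and 2.48% and 3.96% of all, and CACGTG, the E-box, in 0 of the 8 and 6.42% of all. The loose forms include the strict one. In the sequences below, capitals mark CCAAT and GGGCGG on either strand, so ATTGG and CCGCCC are the same motifs read on the other strand.
Msmo1 (chr16:29746863-29747162, plus strand): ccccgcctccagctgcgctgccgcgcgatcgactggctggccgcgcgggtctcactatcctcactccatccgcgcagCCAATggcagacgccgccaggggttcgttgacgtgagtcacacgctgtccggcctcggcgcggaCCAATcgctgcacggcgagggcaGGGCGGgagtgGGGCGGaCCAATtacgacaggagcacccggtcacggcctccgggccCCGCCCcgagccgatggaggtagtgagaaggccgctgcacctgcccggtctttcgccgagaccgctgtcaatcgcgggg
Hsd17b7 (chr13:84722705-84723004, minus strand): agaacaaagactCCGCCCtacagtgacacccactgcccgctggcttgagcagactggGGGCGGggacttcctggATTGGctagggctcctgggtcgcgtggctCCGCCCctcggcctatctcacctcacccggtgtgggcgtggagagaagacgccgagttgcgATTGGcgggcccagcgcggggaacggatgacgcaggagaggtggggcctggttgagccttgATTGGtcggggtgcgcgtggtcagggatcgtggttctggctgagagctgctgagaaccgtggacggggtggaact
Nsdhl (chrX:155817110-155817409, plus strand): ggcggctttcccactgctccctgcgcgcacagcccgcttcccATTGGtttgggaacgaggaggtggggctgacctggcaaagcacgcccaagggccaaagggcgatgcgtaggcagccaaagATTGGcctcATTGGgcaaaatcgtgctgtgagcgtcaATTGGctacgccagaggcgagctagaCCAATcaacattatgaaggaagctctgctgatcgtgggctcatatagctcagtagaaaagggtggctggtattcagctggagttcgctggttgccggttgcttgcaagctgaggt
Ebp (chrX:16971212-16971511, plus strand): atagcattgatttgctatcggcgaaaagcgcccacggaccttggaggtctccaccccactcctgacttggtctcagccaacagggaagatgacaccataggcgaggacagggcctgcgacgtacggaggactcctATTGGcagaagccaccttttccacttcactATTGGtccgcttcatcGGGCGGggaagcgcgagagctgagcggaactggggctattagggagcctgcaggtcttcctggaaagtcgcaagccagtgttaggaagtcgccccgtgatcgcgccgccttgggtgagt
These 4 promoter positions are in GRCr8 and are not to be set beside the rn6 positions above. Msmo1 has 3 CCAAT and 3 GGGCGG in this window, as has Hsd17b7. Nsdhl has 5 CCAAT and 0 GGGCGG, and Ebp has 2 CCAAT and 1 GGGCGG. These are matches of letters only.

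EF alone raised 7 of the 9 genes over control, against 0.656% of all genes tested. Msmo1 rose 4.33-fold, Sqle 3.66-fold, Hsd17b7 3.12-fold and Tm7sf2 2.6-fold. Cyp51, Lss and Ebp rose as well, and Nsdhl and Dhcr7 did not pass the test. The median log2 change was 1.38 over the 9 genes and 0.01 over all genes tested. This comparison and the others against control share the 5 control libraries.

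Msmo1 was at 916, 562, 570.2, 326 and 403 CPM in EF 1, 2, 3, 4 and 5, all above the control libraries given above. EF 1 was the highest of the 38 libraries for Msmo1, and EF 4 the lowest of its group. The log2 change was 2.11 ± 0.30 (adjusted p = 0.000131), and without EF 1 it was 1.85. Sqle was at 220.2, 164, 159, 81.7 and 112 CPM and rose by 1.87 ± 0.28 (adjusted p = 0.000199), again with no overlap. Hsd17b7 was at 105, 73.2, 77.2, 44.8 and 64.9 CPM and rose by 1.64 ± 0.28 (adjusted p = 0.00107).

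Tm7sf2, the sterol reductase, was at 71.5, 66.7, 106, 96.5 and 89.8 CPM in control and 226, 179.8, 212, 204 and 299 CPM in EF. All EF libraries were above all control libraries, and the highest was EF 5, not EF 1. The log2 change was 1.38 ± 0.20 (adjusted p = 0.000133). Cyp51 rose by 1.19 ± 0.24 (adjusted p = 0.00682). Ebp rose by 0.63 ± 0.15 (adjusted p = 0.0341), from the control values above to 242, 177, 225, 184 and 234 CPM in EF. Lss rose by 1.39 ± 0.35 (adjusted p = 0.0452), with overlap: control 3, at 25.6 CPM, lay above EF 4, at 20.3 CPM.

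The calls of Lss and Ebp were not kept in every omission. When each library was left out in turn, the call of Lss was lost in 8 of 10 fits, with an adjusted p of up to 0.132 without control 4, and that of Ebp in 6 of 10, with an adjusted p of up to 0.122 without control 4. Nsdhl was at 648, 631, 624, 456 and 475 CPM in EF, every library above the highest control, with a log2 change of 0.58 ± 0.15 (adjusted p = 0.0524). Dhcr7 had a log2 change of 0.71 ± 0.23 (adjusted p = 0.137). For 7 of the 9 genes, all but Lss and Dhcr7, every EF library was above every control library, as were 1.14% of all genes tested.

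EF with PF raised 4 of the 9 genes over control, against 0.446% of all genes tested. Tm7sf2 rose by 1.28 ± 0.20 (adjusted p = 0.000379), Sqle by 1.37 ± 0.27 (adjusted p = 0.00839), Msmo1 by 1.45 ± 0.29 (adjusted p = 0.00985) and Dhcr7 by 0.96 ± 0.23 (adjusted p = 0.0357). Msmo1 was at 398, 411, 351, 343 and 248 CPM in EF_PF 1, 2, 3, 5 and 6 and Sqle at 115, 118, 109, 96 and 81.1 CPM, all above every control library. Dhcr7, the reductase of the last step, was at 159, 84.1, 114, 95 and 111 CPM in control and 261, 212, 245, 172 and 208 CPM in EF_PF, without overlap. Its call was lost in 7 of 10 fits that left out 1 library, with an adjusted p of up to 0.104 without control 4. The call of Msmo1 was lost without control 4 (adjusted p = 0.0524), and the count fell to 2 of the 9 genes without that library. DESeq2 called 7.

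The other 5 genes had positive changes that did not pass the test. They were 1.18 ± 0.35 (adjusted p = 0.11) for Lss, 1.04 ± 0.27 (adjusted p = 0.063) for Hsd17b7, 0.89 ± 0.24 (adjusted p = 0.0657) for Cyp51, 0.49 ± 0.15 (adjusted p = 0.123) for Ebp and 0.26 ± 0.15 (adjusted p = 0.484) for Nsdhl. Every EF_PF library was above every control library for 7 of the 9 genes, all but Lss and Nsdhl, and for 1.9% of all genes tested.

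EF with RD raised Tm7sf2 and no other of the 9 genes, against 0.859% of all genes tested. Tm7sf2 was at 159.8, 212, 148 and 188 CPM in EF_RD 1, 2, 3 and 4, every library above every control library, and rose by 1.04 ± 0.21 (adjusted p = 0.00664). Its call was lost when the model was fitted to these 2 groups alone (adjusted p = 0.0527). Msmo1 was at 242, 217, 169.7 and 215 CPM and Sqle at 90.2, 64.7, 56.1 and 68.6 CPM, both without overlap with control, but their changes of 0.72 ± 0.31 (adjusted p = 0.23) and 0.80 ± 0.28 (adjusted p = 0.144) did not pass the test. Hsd17b7 had a change of 0.73 ± 0.29 (adjusted p = 0.187). For these 4 genes every EF_RD library was above every control library, as for 2.48% of all genes tested. The change of Nsdhl was -0.04 ± 0.16 (adjusted p = 0.929), and its sign turned with total-count scaling (0.03).

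**Figure D2:**
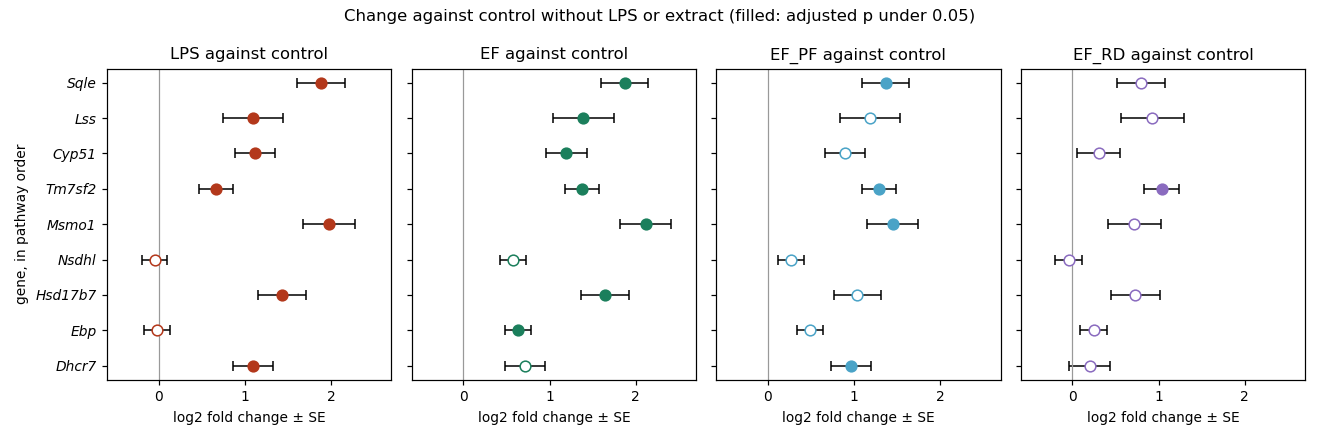
Log2 fold change (points) with SE (bars) of each gene, in pathway order from top to bottom, in LPS, EF, EF_PF and EF_RD against the 5 shared control libraries; filled points passed an adjusted p under 0.05. Filled points number 7 for LPS, 7 for EF, 4 for EF_PF and 1 for EF_RD, and Nsdhl and Ebp both lie near 0 in the LPS panel.

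Set against EF directly, EF_RD had lower Msmo1, with a log2 change of -1.40 ± 0.32 (adjusted p = 0.0303), and no other of the 9 genes was called, against 0.237% of all genes tested that were called lower. Every EF_RD library was below every EF library for Cyp51, Msmo1, Nsdhl and Hsd17b7. How many of all genes tested lay apart in this way was not computed, so this count has no background beside it. The call of Msmo1 was lost in 4 of 9 fits that left out 1 library and in 6 other alternatives, while DESeq2 called 4 of the 9 genes and 1.5% of all genes. EF_PF against EF called 0 of the 9 genes by edgeR's quasi-likelihood test, 0 by DESeq2 and 3 at an unadjusted p under 0.05, where 0.162% of all genes tested were called. An unadjusted p under 0.05 was reached by 1815 of the 14786 genes tested. Log2 changes ran from -0.67 to 0.25.

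In rats given EF, LPS raised 0 of the 9 genes and lowered 1. LPS_EF against EF called Nsdhl lower, with a log2 change of -0.67 ± 0.15 (adjusted p = 0.00125), and no other of the 9 genes, where 14.5% of all genes tested were called lower. A count of 1 of 9 is near the share of all genes. Nsdhl was at 386, 341, 351, 362 and 344 CPM in LPS_EF 3, 4, 5, 6 and 7, every library below every EF library. Ebp was at 174, 161, 168, 163 and 147 CPM, also below every EF library, with a change of -0.39 ± 0.15 (adjusted p = 0.0514). How many of all genes tested lay apart between LPS_EF and EF was not computed. Msmo1 was at 541, 455, 319, 484 and 176 CPM and Sqle at 148, 129, 92.6, 155 and 65.1 CPM, values that overlapped with both EF and LPS. Their changes were -0.49 ± 0.29 (adjusted p = 0.206) and -0.32 ± 0.27 (adjusted p = 0.388). Without EF 1 they were -0.23 and -0.13, and without the 5 libraries that stood apart -0.05 and 0.02.

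In rats given EF with PF, LPS lowered Nsdhl and Ebp, with log2 changes of -0.76 ± 0.16 (adjusted p = 0.000462) and -0.63 ± 0.16 (adjusted p = 0.00281), where 17.3% of all genes tested were called lower. A count of 2 of 9 is near the share of all genes. Neither change was called as different from the LPS change without extract, as the interactions below show. Nsdhl was at 463, 464, 519.7, 405 and 432 CPM in EF_PF and 264, 253, 327 and 238 CPM in LPS_EF_PF 1, 3, 4 and 6. Ebp was at 192, 181, 193, 223 and 174 CPM in EF_PF and 119, 124, 136 and 121 CPM in LPS_EF_PF. Neither gene overlapped between the 2 groups, and how many of all genes tested lay apart between them was not computed. The other 7 genes had changes from -0.86 ± 0.37 for Lss to -0.13 ± 0.28 for Hsd17b7 that did not pass the test. Those of Hsd17b7 and Sqle had the other sign under total-count scaling, at 0.04 and 0.02.

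In rats given EF with RD, LPS called 0 of the 9 genes by edgeR's quasi-likelihood test, 1 by DESeq2 and 3 at an unadjusted p under 0.05, where 23.5% of all genes tested were called. DESeq2 called 25.3% of all genes. An unadjusted p under 0.05 was reached by 5381 of the 14786 genes tested, so that 3 of 9 is near the share of all genes. The spread in LPS_EF_RD was wide. Msmo1 was at 256, 196, 647, 347 and 392 CPM in LPS_EF_RD 1, 2, 4, 6 and 8, and Sqle at 77.8, 57.5, 182, 116 and 136 CPM. LPS_EF_RD 4 was the highest of its group for both genes and LPS_EF_RD 2 the lowest. The changes against EF_RD were 0.80 ± 0.31 (adjusted p = 0.058) for Msmo1 and 0.70 ± 0.29 (adjusted p = 0.0715) for Sqle. Without LPS_EF_RD 4 they were 0.49 and 0.46. Both genes were called higher without LPS_EF_RD 1 (adjusted p = 0.0425 and 0.0475), without LPS_EF_RD 2 (0.0359 and 0.0353) and without the 5 libraries that stood apart. Sqle was called also without EF_RD 1 (0.0472), and Msmo1 by DESeq2 (adjusted p = 0.0369) and under total-count scaling. In these 3 arms too, 6 of 6 neutrophil and monocyte markers were called higher with LPS, and 1, 5 and 1 of 7 hepatocyte markers were called lower in LPS_EF, LPS_EF_PF and LPS_EF_RD. In the same order, 3, 5 and 3 of 6 Kupffer cell, 5, 5 and 3 of 6 lymphocyte, 4, 3 and 3 of 6 endothelial and 2, 3 and 1 of 6 stellate markers were called higher. Called lower were 1 of 6 cholangiocyte markers in LPS_EF_PF, and 1 of 6 stellate and 3 of 3 tested skeletal muscle markers in LPS_EF_RD, the muscle markers having been high in EF_RD 1. Of all genes tested, 14.6%, 19.2% and 12.8% were called higher in these arms, and 10.7% lower in LPS_EF_RD. The part of these markers in the sterol gene values was not tested.

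**Figure D3:**
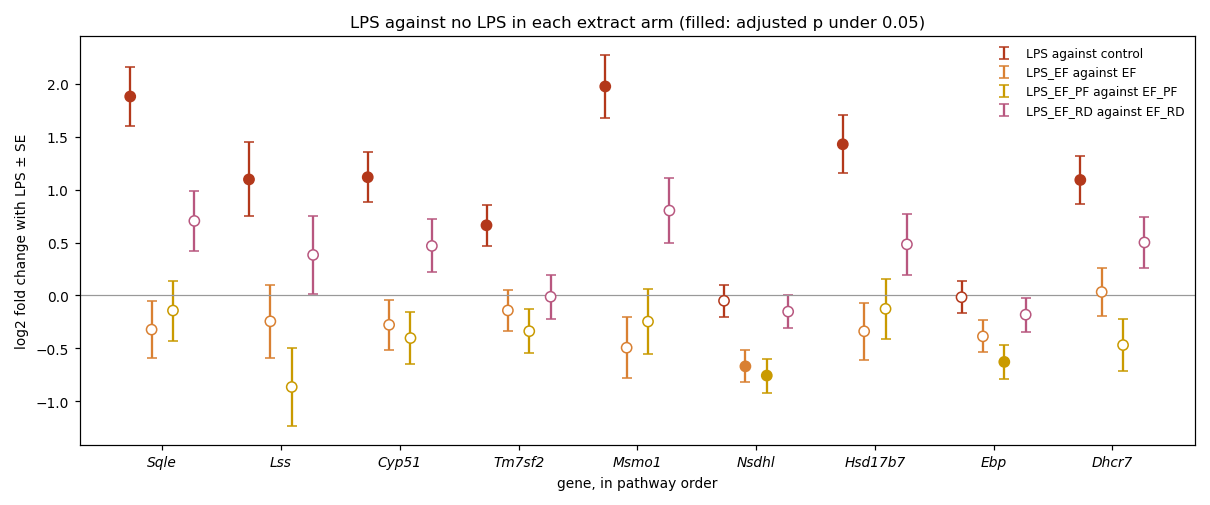
Log2 fold change with LPS (points) and SE (bars) of each gene, in pathway order, without extract and within EF, EF_PF and EF_RD; filled points passed an adjusted p under 0.05. The change of Msmo1 and Sqle is near 2 without extract and below 0 within EF and EF_PF, where Sqle turns to 0.02 without the 5 libraries that stood apart (EF) and under total-count scaling (EF_PF).

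The difference between these LPS effects was tested as an interaction. With EF, the LPS change differed by -2.47 ± 0.41 (adjusted p = 0.00909) for Msmo1, -2.20 ± 0.38 (adjusted p = 0.00909) for Sqle and -1.77 ± 0.38 (adjusted p = 0.0495) for Hsd17b7, all in log2 and signed as the change within EF minus the change without extract. Called genes made up 0.108% of all genes tested. No other of the 9 genes was called. The interaction was -1.39 ± 0.33 (adjusted p = 0.101) for Cyp51, -1.34 ± 0.49 (adjusted p = 0.546) for Lss and -1.06 ± 0.32 (adjusted p = 0.399) for Dhcr7. It was -0.80 ± 0.275 (adjusted p = 0.482) for Tm7sf2, -0.62 ± 0.21 (adjusted p = 0.482) for Nsdhl and -0.37 ± 0.21 (adjusted p = 0.779) for Ebp. Leaving out 1 library at a time kept the calls of Sqle and Msmo1 in 20 of 20 fits, with an adjusted p of up to 0.0366 without EF 1, whereas Hsd17b7 was lost in 15 of 20. The calls of Sqle and Msmo1 were also kept in 8 of 9 other alternatives and lost in 1, the fit with the replicate number as a block. The group means of Msmo1 behind this test were 128 ± 25.9 CPM in control, 556 ± 227 in EF, 504 ± 154 in LPS and 395 ± 147 in LPS_EF (SD, n = 5 each). Those of Sqle were 40.3 ± 8.06, 147 ± 53.2, 148 ± 43.9 and 118 ± 38.2 CPM. For both genes the mean in LPS_EF was below those in EF and in LPS, with overlapping libraries.

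With EF and PF the interaction was -2.22 ± 0.43 (adjusted p = 0.0257) for Msmo1 and -2.02 ± 0.40 (adjusted p = 0.0257) for Sqle, where 0.0812% of all genes tested were called lower. Both calls were lost in 9 of 19 fits that left out 1 library, with an adjusted p of up to 0.104 without LPS_EF_PF 6. DESeq2 called 6 of the 9 genes and 0.217% of all genes. With EF and RD the interaction called 0 of the 9 genes by edgeR's quasi-likelihood test, 0 by DESeq2 and 4 at an unadjusted p under 0.05, where 0.128% of all genes tested were called. An unadjusted p under 0.05 was reached by 1109 of the 14786 genes tested. The interaction with EF and RD was -1.17 ± 0.42 (adjusted p = 0.464) for Msmo1 and -1.18 ± 0.39 (adjusted p = 0.399) for Sqle. The 3 interactions share the control and LPS libraries.

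Among the groups given LPS, none of the 9 genes passed the test in any comparison. LPS_EF against LPS called 0 of the 9 by edgeR's quasi-likelihood test, 0 by DESeq2 and 1 at an unadjusted p under 0.05, where 0.108% of all genes tested were called, and log2 changes ran from -0.35 to 0.57. LPS_EF_PF against LPS called 0 by edgeR's quasi-likelihood test, 0 by DESeq2 and 6 at an unadjusted p under 0.05, where 0.0406% of all genes tested were called, with changes from -0.78 to 0.28. LPS_EF_RD against LPS called 0 by edgeR's quasi-likelihood test, 0 by DESeq2 and 0 at an unadjusted p under 0.05, where 0.0135% of all genes tested were called, with changes from -0.46 to 0.36. Against LPS_EF, LPS_EF_PF called 0 by edgeR's quasi-likelihood test, 0 by DESeq2 and 3 at an unadjusted p under 0.05, where 0.00676% of all genes tested were called. Every LPS_EF_PF library was below every LPS_EF library for Nsdhl and Ebp, and the share of all genes tested that lay apart in this way was not computed. LPS_EF_RD against LPS_EF called 0 by edgeR's quasi-likelihood test, 0 by DESeq2 and 0 at an unadjusted p under 0.05, where 0% of all genes tested were called. In the order given, these comparisons had 1452, 891, 1130, 1205 and 412 of the 14786 genes tested at an unadjusted p under 0.05.

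In the order of group means, EF stood first for 7 of the 9 genes and LPS for Sqle and Dhcr7. Control stood last for 7, and LPS_EF_PF for Nsdhl and Ebp. The ratio of the highest to the lowest group mean was 4.33 for Msmo1, 3.68 for Sqle, 3.12 for Hsd17b7, 2.62 for Lss, 2.6 for Tm7sf2, 2.29 for Cyp51, 2.13 for Dhcr7, 2.1 for Nsdhl and 1.7 for Ebp. Neighbouring groups in these orders overlapped in their library values except for EF_RD above control, which were separate for Sqle, Msmo1 and Hsd17b7.

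Libraries of a group tended to be high or low for many of the genes at once. All 9 were above the group mean in EF 1, LPS 1, LPS 4, LPS_EF 3, LPS_EF_PF 4 and LPS_EF_RD 4. None of the 9 was above it in control 4, EF 4, LPS 3, LPS_EF 7, LPS_EF_PF 6 and LPS_EF_RD 2. Over 38 libraries, with group means removed from log2 CPM, Pearson's r between Sqle and Msmo1 was 0.967 and between Sqle and Cyp51 0.921. Nsdhl had an r of 0.596 with the mean of the other 8 genes before group means were removed and 0.838 after. Of the 9 genes, Tm7sf2 had the weakest such relation with group means removed, at 0.52. The libraries share sequencing and scaling, and these values are a description.

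**Figure D4:**
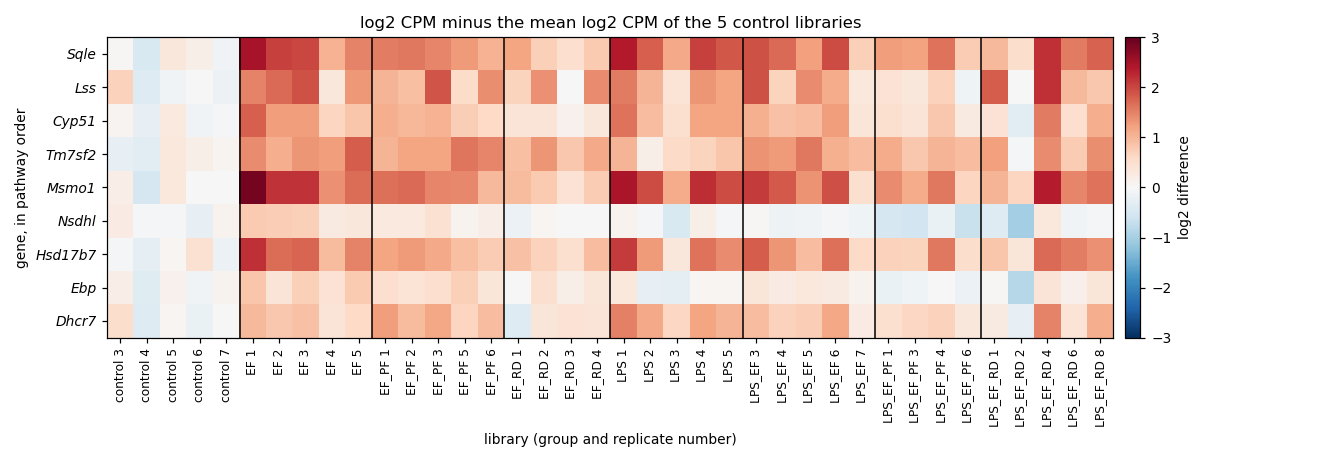
Log2 CPM of each gene (rows, in pathway order) in each of 38 libraries (columns, by group) minus the mean log2 CPM of the 5 control libraries, on a colour scale from blue (lower) to red (higher). Msmo1, Sqle and Hsd17b7 are red in EF and LPS libraries, except that Hsd17b7 is pale in LPS 3. Nsdhl is pale or blue in the LPS groups, and LPS_EF_RD 2 and 4 lie far apart.

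The neighbouring steps were read from lists of genes set by role. Of 10 genes of the mevalonate steps, which lead from acetyl-CoA to squalene, LPS raised 8, EF 7, EF_PF 5 and EF_RD 0, the last also 0 by DESeq2, with 3 at an unadjusted p under 0.05. Of all genes tested, these comparisons called 18.6%, 0.656%, 0.446% and 0.859% higher. With EF_RD, 2416 of the 14786 genes tested had an unadjusted p under 0.05. The median log2 changes of the 10 genes were 1.11, 1.35, 1.003 and 0.34. Hmgcs1, which makes hydroxymethylglutaryl-CoA, rose by 1.56 ± 0.26 (adjusted p = 4.43e-05) with LPS and by 1.89 ± 0.27 (adjusted p = 0.000131) with EF. Mvd, which decarboxylates mevalonate diphosphate, rose by 1.85 ± 0.29 (adjusted p = 2.09e-05), 1.72 ± 0.29 (adjusted p = 0.00126) and 1.48 ± 0.29 (adjusted p = 0.00752) with LPS, EF and EF_PF. Idi1, the isopentenyl diphosphate isomerase, rose by 1.72 ± 0.30 (adjusted p = 5.32e-05) with LPS and 1.81 ± 0.30 (adjusted p = 0.00104) with EF. The interaction of LPS with EF was called lower for 5 of these 10 genes (Acat2, Hmgcs1, Idi1, Mvd and Fdft1), and that with EF_PF for 5 (Acat2, Mvd, Hmgcs1, Mvk and Pmvk). Over all genes tested, the fit with the replicate number as a block called 0 in either interaction, and limma without a filter 0 in that with EF_PF, so these calls were lost there. For Hmgcs1 the interactions were -2.17 ± 0.37 (adjusted p = 0.00909) and -1.95 ± 0.38 (adjusted p = 0.0257).

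Of 8 tested genes that act beside the 9 in the late steps, LPS raised 2 and lowered 4, against 18.6% and 18.1% of all genes tested. Log2 changes of the 8 genes ran from -1.04 to 0.81. Among the raised was Lbr, a sterol reductase of the step of Tm7sf2, by 0.67 ± 0.13 (adjusted p = 0.000199), which was not the highest change. The lowered ones were electron donors and helpers of the oxidising enzymes, with log2 changes of -1.04 ± 0.36 (adjusted p = 0.0225) for Por, -0.85 ± 0.15 (adjusted p = 7.32e-05) for Cyb5a, -0.80 ± 0.12 (adjusted p = 7.86e-06) for Pgrmc1 and -0.45 ± 0.16 (adjusted p = 0.0239) for Cyb5r3. EF raised 2 of the 8, among them the desaturase Sc5d by 0.72 ± 0.17 (adjusted p = 0.0296), and EF_PF raised 1.

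Of 12 genes of SREBP2 control and cholesterol uptake, LPS raised 4 and lowered 1, EF raised 2, EF_PF 2 and EF_RD 1. Shares called higher over all genes tested were 18.6%, 0.656%, 0.446% and 0.859%, and 18.1% were called lower with LPS. Srebf2, the gene of SREBP2, rose by 0.76 ± 0.12 (adjusted p = 2.41e-05) with LPS, 0.74 ± 0.12 (adjusted p = 0.00104) with EF, 0.80 ± 0.12 (adjusted p = 0.000378) with EF_PF and 0.58 ± 0.13 (adjusted p = 0.0144) with EF_RD. Scap, the escort of SREBP2, rose by 0.50 ± 0.10 (adjusted p = 0.000159) with LPS and 0.45 ± 0.10 (adjusted p = 0.0165) with EF_PF. Insig1 had a change of -0.41 ± 0.28 (adjusted p = 0.268) with LPS without extract, and fell by 0.90 ± 0.29 (adjusted p = 0.0169) on the log2 scale with LPS within EF and by 1.65 ± 0.32 (adjusted p = 0.000134) within EF_PF. The interaction of LPS with EF was called for 0 of the 12 genes, Insig1 included, where 0.108% of all genes tested were called. That with EF_PF was called lower for 1 of the 12, not named here, where 0.0812% of all genes tested were called lower.

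Of 12 genes of cholesterol use and export, LPS raised 6 and lowered 2, against 18.6% and 18.1% of all genes tested, and each extract treatment raised 1. With the extracts that gene was Cyp8b1, the sterol hydroxylase that sets the ratio of primary bile acids, at 1.58 ± 0.21 (adjusted p = 9.37e-05) for EF, 1.63 ± 0.21 (adjusted p = 3.49e-05) for EF_PF and 1.75 ± 0.22 (adjusted p = 2.94e-05) for EF_RD. LPS lowered it, with a log2 change of -0.52 ± 0.21 (adjusted p = 0.049), and raised Abcg1, a cholesterol exporter, by 1.74 ± 0.26 (adjusted p = 8.5e-06) and Soat1, which esterifies cholesterol, by 1.64 ± 0.36 (adjusted p = 0.000634). Of 8 genes of fatty acid synthesis, LPS raised 0 and lowered 2, EF and EF_PF called 0 by edgeR's quasi-likelihood test, and EF_RD lowered 1. Of all genes tested, 18.1% were called lower with LPS and 0.663% with EF_RD, so that 2 of 8 is near the share of all genes. DESeq2 also called 0 of them with EF and with EF_PF, and 3 and 2 had an unadjusted p under 0.05. So had 1679 and 1855 of the 14786 genes tested. Scd, the stearoyl-CoA desaturase, fell by 1.74 ± 0.64 (adjusted p = 0.0307) with LPS and by 2.89 ± 0.73 (adjusted p = 0.0337) with EF_RD.

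**Figure D5:**
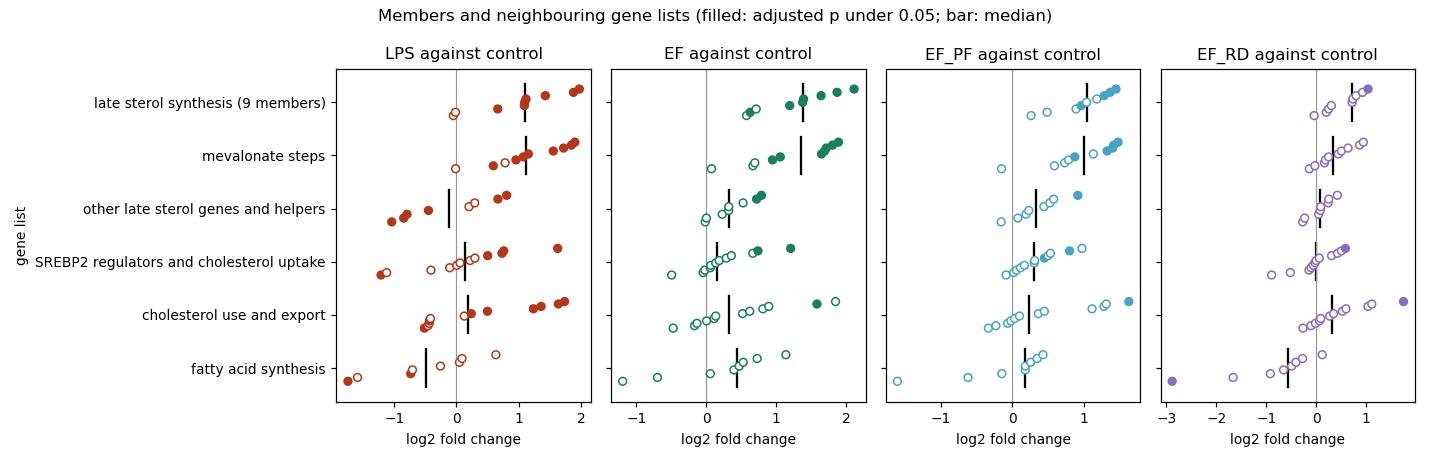
Log2 fold change of each gene of the late sterol steps and of 5 neighbouring lists (rows) in LPS, EF, EF_PF and EF_RD against control, each panel with its own horizontal axis; filled points passed an adjusted p under 0.05 and black bars are list medians. The medians of the late sterol and mevalonate rows lie between 1.003 and 1.38 in the LPS, EF and EF_PF panels, and the fatty acid row has no filled point to the right of 0.

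Over the 38 libraries, the genes outside the 9 whose log2 CPM followed the mean standardised level of the 9 most closely, among 11106 genes ranked, were Hmgcs1 (Pearson's r 0.931), Idi1 (0.929), Fdft1 (0.922), Acat2 (0.918), Mvd (0.913), Acat2l1 (0.903), Acss2 (0.902), LOC108349805 (0.898), Fdps (0.877) and Pmvk (0.854). With group means removed, r was 0.811 to 0.929 for these 10. Acat2l1 and Acat2 are similar genes, and reads shared between them are uncertain.

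Reads were counted without strand. Nsdhl, Hsd17b7 and Dhcr7 overlap gene models on the opposite strand, LOC103694524 (mean 0.355 CPM), LOC100366054 (0.111 CPM) and Cttn (5.57 CPM), and reads of each pair in the shared stretch could not be told apart. Reads of Cyp51, a gene known for processed pseudogenes, may also be shared with such copies.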

How the data were processed

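RNA of 38 livers was measured in 8 groups. The deposited whole-number counts of read pairs per gene name were made with featureCounts 2.0.6, per the file headers, against an rn6 RefSeq annotation, with no strand or multi-mapping option, and cover 31038 genes. The submitters' processing notes name STAR, RSEM and build mRatBN7.2, and the positions here are those of the count table. The deposited TPM values equal counts divided by length and rescaled, within 0.0495% over 31011 matched names, and were used for levels per length and in alternative fits. Samples are biological replicates per the design text.

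The main test of the counts was that of edgeR 4.0.16 (R 4.3.3) (filterByExpr with a minimum count of 10 and a minimum total of 15, TMM, glmQLFit and glmQLFTest, 1 mean per group, all 38 libraries, 17 comparisons). P-values are two-sided and adjusted by Benjamini-Hochberg over 14786 genes within a comparison. The steps were tested on simulated data. Alternatives used DESeq2 1.42.0, limma 3.58.1 on log2(TPM + 1) and log2(TPM + 0.1), no low-count filter, the replicate number as a block, only the groups compared, total-count scaling (added after the data were seen), and omissions of each library and of 5 libraries. The labels give no pairing by replicate number. Over 88 same-numbered pairs from different groups the median correlation of deviations was 0.018, against 0.001 over 543 other pairs. It was over 0.1 in 24 of the 88 and 105 of the 543. These values cannot show whether some same-numbered libraries share a factor.

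The 9 genes, the neighbouring lists and the 5 omitted libraries were chosen with earlier results of these data known. All 9 genes were tested in every comparison, but in some comparisons only part of the 9 are given by name. Those called by the main test were always named. From each neighbouring list, at most 4 called genes were named, taken by size of change. The 10 named as most alike came from a ranking limited to an average level of 2 CPM or more. Lbr, Cyb5r3, Fdft1 and Pmvk, and named genes' values in further comparisons, were added after their values were seen. Erg28 was not matched in the count table, so 8 of 9 late helpers were tested. Some genes of the neighbouring lists are counted with their list but not reported here by name.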

Additional observations from a re-analysis of the deposited data

Results flagged for a closer look

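Within groups of 4 or 5 libraries, 3 of the 72 combinations of gene and group tested held a library far from the rest, and chance flags about 1 in 20. Lss was at 25.61 CPM in control 3, the next control library being at 15.82 CPM. Hsd17b7 was at 69.37 CPM in LPS_EF_PF 4, the next being at 37.0 CPM. Dhcr7 was at 83.54 CPM in EF_RD 1, the lowest of its group, the next being at 141 CPM; this library also carried muscle markers at 3756 CPM, whose part in the value was not tested.

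For some of the 9 genes the LPS effect differed between rats with and without EF, and with and without EF and PF. No such difference was called with EF and RD. With EF, the log2 difference between the LPS effects was -2.202 for Sqle, -2.467 for Msmo1 and -1.766 for Hsd17b7. With EF and PF, it was -2.022 for Sqle and -2.22 for Msmo1. All 5 were tested as interaction terms of edgeR's quasi-likelihood model.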

How the results depend on the processing

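LPS against control called 7 of the 9 genes in each omission of 1 library, and EF against control 5 to 8. The range was 2 to 4 for EF_PF against control, 1 to 1 for EF_RD against control, 1 to 2 for LPS_EF against EF, 2 to 3 for LPS_EF_PF against EF_PF, 0 to 3 for LPS_EF_RD against EF_RD, 2 to 4 for the interaction of LPS with EF, 0 to 5 for that with EF_PF and 0 to 2 for EF_RD against EF. DESeq2 called 7 genes in EF_PF against control, 2 in LPS_EF against EF, 1 in LPS_EF_RD against EF_RD, 6 in the interaction with EF_PF and 4 in EF_RD against EF. In the same order it called 1.8%, 31.1%, 25.3%, 0.217% and 1.5% of all genes. Fitting only the groups compared called 0 in EF_RD against control, 2 in LPS_EF against EF, 5 in LPS_EF_PF against EF_PF, 5 in the interaction with EF_PF and 0 in EF_RD against EF. Of all genes, this fit called 0.119%, 15.6%, 45.5%, 0.188% and 0% in the same order. Without the 5 libraries that stood apart, LPS_EF_RD against EF_RD called 2, the interaction with EF_PF 5 and EF_RD against EF 0, beside 32.1%, 0.229% and 0.377% of all genes. Total-count scaling called 1 in LPS_EF_RD against EF_RD, beside 21.6% of all genes, and dropping the low-count filter 2 in EF_RD against EF, beside 0.818%. All 3 limma fits called 0 in EF_RD against EF, and the one without a filter 0 in the interaction with EF_PF.

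With the replicate number as a block, for which the labels give no pairing, LPS against control and EF against control each called 6 genes in place of 7, both without Lss. The block fit called 2 genes in EF_PF against control, 2 in LPS_EF against EF and 0 in EF_RD against EF. It called 0 in the interaction with EF and 0 in that with EF_PF (0 of all genes tested in either interaction, the mevalonate genes included). Ebp in LPS against control was at 0.018. In LPS, EF and EF_PF against control, LPS_EF against EF and EF_RD against EF, the block fit called 24.1%, 0.92%, 0.906%, 34.8% and 0.101% of all genes tested. The main fit called 36.8% in LPS against control.

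Signs turned only for values that passed no test. Nsdhl in LPS against control was 0.074 in the limma fits, 0.037 without the 5 libraries and 0.078 under total-count scaling, and -0.112 to 0.033 over omissions. Ebp there was 0.11, 0.111 and 0.11 in the limma fits, 0.046 without the 5 libraries and 0.104 under total-count scaling, and -0.114 to 0.042 over omissions. Nsdhl in EF_RD against control was 0.024 in the limma fits and 0.028 under total-count scaling, and -0.098 to 0.017 over omissions. In LPS_EF against EF without the 5 libraries, Sqle was 0.02 and Cyp51 0.022; over omissions Tm7sf2 there ran from -0.233 to 0.003 and Dhcr7 from -0.073 to 0.141. In LPS_EF_PF against EF_PF, Sqle was 0.021 and 0.022 in the limma fits and 0.021 under total-count scaling, and Hsd17b7 0.003, 0.001 and 0.039. Tm7sf2 in LPS_EF_RD against EF_RD was 0.006 without the 5 libraries, 0.028 under total-count scaling and -0.127 to 0.15 over omissions. Nsdhl in the interaction with EF_RD ran from -0.261 to 0.037 over omissions. The causes were not tested. Under total-count scaling, 72.0% of the genes called over all in LPS against control were higher, against 50.6% with TMM.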
